A study of Homo sapiens with 4 samples.

Results

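The peaks described here are the autosomal regions that lie beside the largest peak-free gaps of an H3K4me1 peak list from HepG2, an established human liver cancer line. A gap was a stretch over 1 Mb long between 2 consecutive peaks, and a peak counted as lying beside it when one of its edges was within 1 Mb of the gap. This rule found 21 gaps and 1726 peaks, out of 157150 distinct autosomal peaks and 160601 distinct peaks in the whole list. The rule uses peak positions, so the gaps and the number of peaks next to them are given as a description and support no test. Peak width and the number of deposited rows per peak played no part in it, although they come from the same call.

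The study compared H3K4me1 between HepG2 cells that had received an siRNA against LSD2 (LSD2-knockdown) and HepG2 cells with a control siRNA (called GL3 in the peak list), all grown in Dulbecco's medium with high glucose, fetal bovine serum, penicillin and streptomycin, and transfected with RNAiMAX. LSD2 is a demethylase of histone H3 lysine 4. Each condition gave 1 library of chromatin immunoprecipitated with an antibody to H3K4me1 and 1 input library, 4 samples in all, without replicates. The authors called the peaks as regions where the knockdown H3K4me1 library exceeded the control H3K4me1 library. The level of LSD2 left after knockdown is not given in the sources used here, and no depth is known for either library. Every interval below therefore covers counting error only, treats peaks as independent, and says nothing of how a second pair of libraries would vary.

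H3K4me1 is a mark of enhancers and of the flanks of active promoters. Centromeres are the sites where the kinetochore assembles, and they are built on long arrays of satellite repeats. The chromatin around them is largely heterochromatin, marked by methylation of histone H3 lysine 9, and the sequence on their borders is rich in segmental duplications and in fragments of satellite arrays. In the hg19 build, centromeres and the large heterochromatic blocks are written as runs of undetermined bases, to which no read can be aligned. The positions of those runs and of the centromeres were not analysed here, so the gaps are called by their length and chromosome, and which of them hold a centromere is not stated. No sequence of hg19 was used, and none is printed.

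Most gaps were of nearly one length. Of the 21 gaps, 15 measured from 3.02 to 3.37 Mb, and these lay on 15 different chromosomes, with 1 each on chromosomes 2 to 8, 10 to 12 and 17 to 21. Another 3 exceeded 10 Mb. The longest, 21.1 Mb, ran on chromosome 1 from 121404062 to 142550868. Chromosome 9 held the next, 18.4 Mb from 47196303 to 65549029, and chromosome 16 the third, 11.2 Mb from 35223991 to 46419331. The remaining 3 were under 2 Mb. They lay on chromosome 9 (39174028 to 40626255, 1.45 Mb, and 46135334 to 47188976, 1.05 Mb) and on chromosome 2 (90473695 to 91625377, 1.15 Mb). The last of these was separated by 0.700 Mb from the 3.04 Mb gap of the same chromosome, 92325379 to 95363705. In total the gaps took 101.3 Mb on 18 autosomes.

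Completing the 10 longest gaps were those on chromosomes 11 (51432647 to 54799022, 3.37 Mb), 10 (39068398 to 42429192, 3.36 Mb) and 21 (11156236 to 14417895, 3.26 Mb). They were followed by chromosome 6 (58757166 to 61920055, 3.16 Mb), chromosome 18 (15388003 to 18541202, 3.15 Mb), chromosome 20 (26281665 to 29422159, 3.14 Mb) and chromosome 19 (24616380 to 27749828, 3.13 Mb).

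Chromosomes 13, 14, 15 and 22 had no gap of this kind. Their first peaks started at 19029030, 19101613, 20030945 and 16079109, so the peak-free stretch lay before the first peak and not between 2 peaks. Chromosome 21 had both, since its first peak started at 9433775. The length limit separated few stretches. On chromosome 9, a stretch of 0.991 Mb from 42543971 to 43535298 fell just short, and the next below it was 0.741 Mb on chromosome 15. The distance limit ran through populated ground. The outermost peak taken in was 999655 bp from the gap of chromosome 21 and 436 bp wide. The nearest left out were 1000037 bp from the gap of chromosome 16 (408 bp wide) and 1000118 bp from that of chromosome 8 (412 bp wide).

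Peaks were sparser beside the gaps than elsewhere on the autosomes. The flanks, meaning the sequence within 1 Mb of a gap and outside any gap, came to 38.7 Mb. They carried 44.6 peaks per Mb (95% Poisson interval 42.5 to 46.7). The rest of the autosomes carried 58.6 peaks per Mb (58.3 to 58.8) over 2654 Mb, which gave a ratio of 0.762 (95% exact interval 0.726 to 0.799). Peaks covered 15.99 kb per Mb of flank and 19.99 kb per Mb elsewhere, a ratio of 0.800. The flanks thus made up 1.44% of the length considered and held 1.10% of the autosomal peaks (95% Wilson interval 1.05 to 1.15%). Leaving out each of the 18 chromosomes in turn moved the ratio between 0.740, without chromosome 1, and 0.801, without chromosome 9.

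Density differed widely between individual gap sides. There were 38 sides of the full 1 Mb, 19 on the lower-coordinate side of a gap and 19 on the upper. The 2 remaining stretches lay between 2 gaps. The full sides held 44.1 ± 19.7 peaks (SD over 38 sides), with a median of 47.5 and a range from 5 to 80. Fixed windows of 1 Mb laid over the rest of the autosomes held 58.7 ± 19.5 peaks (SD over 2610 windows), with quartiles of 44 and 72. The SD was thus about equal on a lower mean, so the spread relative to the mean was larger beside gaps. Of the 38 sides, 17 held fewer than 44 peaks, a share of 44.7%, as did 24.2% of the windows. Only 2 sides exceeded the upper quartile of 72.

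**Figure D1:**
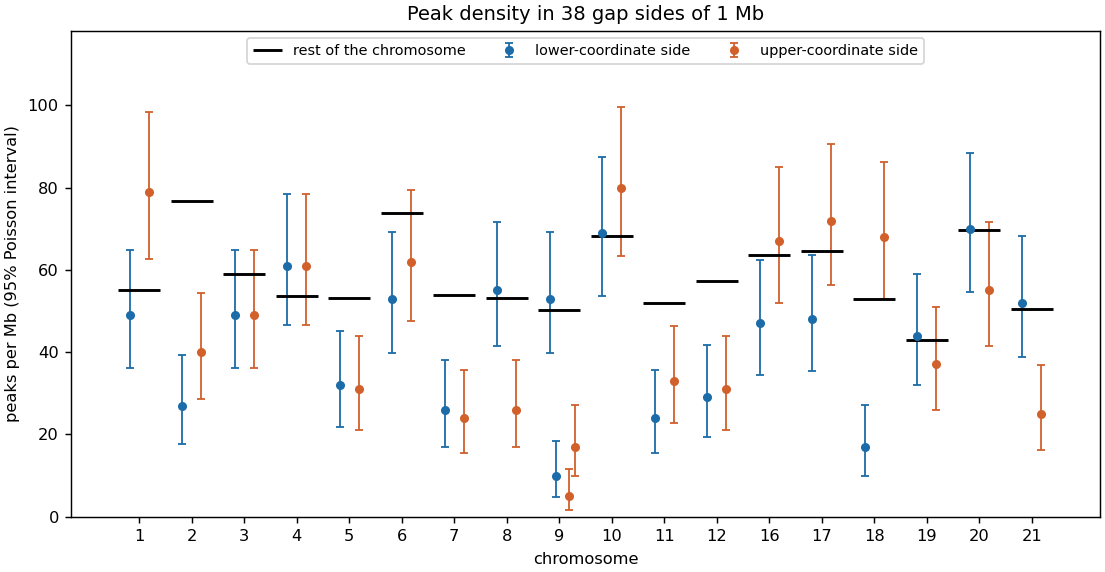
Peaks per Mb (y axis) in each full 1 Mb gap side, by chromosome (x axis). Points are lower-coordinate (blue) and upper-coordinate (orange) sides with 95% Poisson intervals, and black lines are the density of the rest of the same chromosome. Of the 38 sides, 25 (65.8%) lie below their line, against 51.6% of 1 Mb windows elsewhere on these chromosomes. The sides of chromosomes 2, 5, 7, 11 and 12 lie below their line on both flanks, with intervals that exclude it.

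Set against its own chromosome, a side was more often below than above. In 25 of the 38 sides (65.8%) the density was under that of the rest of the chromosome, and in 13 it was over. Of fixed windows of 1 Mb elsewhere on these chromosomes, 51.6% were under it. The Poisson interval excluded the chromosome's value in 20 sides, 19 of them low (50.0%) and 1 high (2.63%). Single windows often fall outside such an interval, since peaks are not spread evenly: of 2313 fixed windows of 1 Mb elsewhere on these chromosomes, 17.9% were low and 17.1% high by the same measure. The median ratio was 0.766, and the range ran from 0.0996 to 1.43. By whole chromosomes, the flanks were below the rest on 15 of 18, with the interval excluding the rest on 10. On chromosomes 1, 4 and 10 the flanks were above the rest, at 64.0 against 55.2 peaks per Mb, 61.0 against 53.7 and 74.5 against 68.2. In each of these 3 the interval of the flanks included the value of the rest.

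The emptiest sides were on chromosome 9. Between 40626256 and 41626255, on the upper side of the 1.45 Mb gap, lay 5 peaks (95% Poisson interval 1.62 to 11.7). Of these, 4 were within 50 kb of the gap edge and the other was 615.0 kb from it. From 45135334 to 46135333, below the 1.05 Mb gap, there were 10 peaks (4.80 to 18.4), and from 65549030 to 66549029, above the 18.4 Mb gap, there were 17 (9.90 to 27.2). In the last of these, 12 of the 17 lay in the final 100 kb, away from the gap. The lower side of the first gap of the chromosome, by contrast, held 53 peaks, close to the 50.2 per Mb of the rest of chromosome 9. The next lowest side was on chromosome 18, from 14388003 to 15388002, with 17 peaks. The lower side of chromosome 11, from 50432647 to 51432646, held 24, as did the upper side of chromosome 7, from 61083137 to 62083136.

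The 5 fullest sides held 69 to 80 peaks, around the upper quartile of 72 of the windows elsewhere. The upper side of chromosome 10, from 42429193 to 43429192, held 80 peaks (63.4 to 99.6), and that of chromosome 1, from 142550869 to 143550868, held 79 (62.5 to 98.5). They were followed by the upper side of chromosome 17 (25278223 to 26278222, 72 peaks), the lower side of chromosome 20 (25281665 to 26281664, 70 peaks) and the lower side of chromosome 10 (38068398 to 39068397, 69 peaks). Only the side on chromosome 1 had an interval wholly above the rest of its chromosome. Its ratio of 1.43 was the highest of all sides.

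Chromosome 2, with 76.8 peaks per Mb outside the flanks, had a fuller island between sparser sides. Its sides facing away from the pair of gaps were sparse. From 89473695 to 90473694 there were 27 peaks, a ratio of 0.352 to the rest of the chromosome. From 95363706 to 96363705 there were 40, a ratio of 0.521. The 0.700 Mb island between both gaps, from 91625378 to 92325378, held 47 peaks, or 67.1 per Mb (49.3 to 89.3), a ratio of 0.874. The median width of its peaks was 392 bp and that on the rest of chromosome 2 was 322 bp, and 17 of the 47 (36.2%) were 420 bp or wider. None was written in more than 1 row. The second stretch between gaps, on chromosome 9 from 47188977 to 47196302, consisted of just 2 peaks, 180 and 369 bp wide and 6.78 kb apart.

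Summed over all gaps, the lower and upper sides were within counting error of each other. The stretches on the lower side of a gap held 43.8 peaks per Mb (41.0 to 46.9), and those on the upper side 46.2 (43.3 to 49.3). The ratio of upper to lower was 1.05, with an exact interval of 0.960 to 1.16 that includes equality. The stretches between 2 gaps counted on both sides here. Single gaps could be lopsided, however. Of 17 gaps with 2 full sides, 8 had more peaks above, 7 had more below and 2 had equal numbers (49 and 49 on chromosome 3, 61 and 61 on chromosome 4). On 5 of the 17 the sides were over 1.5-fold apart. Chromosome 18 held 17 peaks below its gap and 68 above, and chromosome 1 held 49 and 79. On chromosome 8 the order was the opposite, 55 below and 26 above, as on chromosome 21 (52 and 25) and at the first gap of chromosome 9 (53 and 5). Across these 17 gaps the counts of both sides were weakly related (Spearman rho 0.15, Pearson r 0.27), which is a description, since both sides share a chromosome and its libraries. Between the density of the flanks and that of the rest of the same chromosome, Spearman rho was 0.60 and Pearson r 0.54 over 18 chromosomes, again as a description.

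The median spacing of peaks in the flanks was near that elsewhere, and long empty runs were more frequent in the flanks. Spacing comes from the peak positions that the rule also used, so these values are a description. From one peak to the next, the distance within the flanks had a median of 10.5 kb (95% order-statistic interval 9.44 to 11.3) and quartiles of 3.69 and 24.6 kb, over 1686 distances. Elsewhere the median was 9.97 kb (9.88 to 10.1) and the quartiles 3.51 and 22.1 kb. The medians were within counting error of each other, with a ratio of 1.05. A neighbour at 5 kb or less was present for 50.6% of the peaks beside gaps (95% Wilson interval 48.2 to 52.9%) and for 52.6% of those elsewhere (52.4 to 52.9%).

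The sets parted at long distances. Over 50 kb lay 10.3% of the distances in the flanks (95% Wilson interval 8.96 to 11.9%), against 6.35% elsewhere (6.23 to 6.47%). Of the 1686 distances in the flanks, 49 exceeded 100 kb, 2.91% (95% Wilson interval 2.21 to 3.82%), against 0.904% elsewhere (0.858 to 0.952%), a ratio of 3.22. Over 200 kb there were 12 in the flanks, 0.712% (0.408 to 1.24%), against 0.0753% elsewhere (0.0628 to 0.0902%). These 49 stretches added up to 8.85 Mb, or 22.9% of the length of the flanks, where such stretches took 7.45% of the rest. A further calculation, added after the data were seen, left stretches over 100 kb out of both lengths. The flanks then had 57.8 peaks per Mb and the rest 63.3, a ratio of 0.914. Because such stretches took a larger share of the flanks, leaving them out could only raise the ratio.

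The long stretches were spread over 15 of the 18 chromosomes. Chromosome 9 contributed 6 that summed to 2122 kb and chromosome 7 contributed 6 that summed to 1195 kb. The 4 longest ran on chromosome 9 from 65637402 to 66259572 (622.2 kb), on chromosome 9 from 40675894 to 41241274 (565.4 kb), on chromosome 11 from 50747193 to 51260735 (513.5 kb) and on chromosome 9 from 45722620 to 46126271 (403.7 kb). Chromosomes 3, 6 and 16 had none. These long stretches, selected after their lengths were seen, left a patchy outline. Of the 380 bins of 100 kb in the full sides, 45 held no peak, 11.8%, against 2.33% of 26504 such bins elsewhere. Chromosome 9 alone held 22 of the 45, and without it 23 of 340 bins were empty, 6.76%. At the other end, 9.47% of the flank bins held 10 or more peaks, against 14.3% elsewhere.

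**Figure D2:**
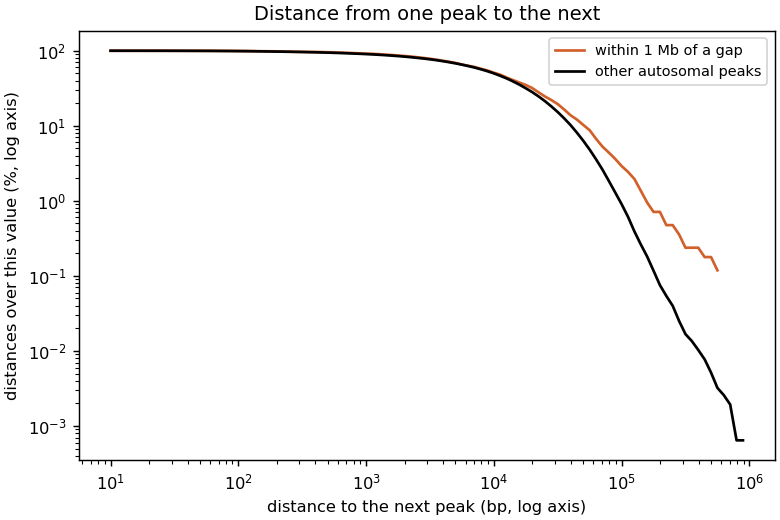
Share of peak-to-peak distances (y axis, percent, log axis) that exceed a given distance (x axis, bp, log axis), for peaks within 1 Mb of a gap (orange) and all other autosomal peaks (black). The curves run together up to about the medians of 10.5 and 9.97 kb and part above, reaching 2.91% and 0.904% at 100 kb.

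**Figure D3:**
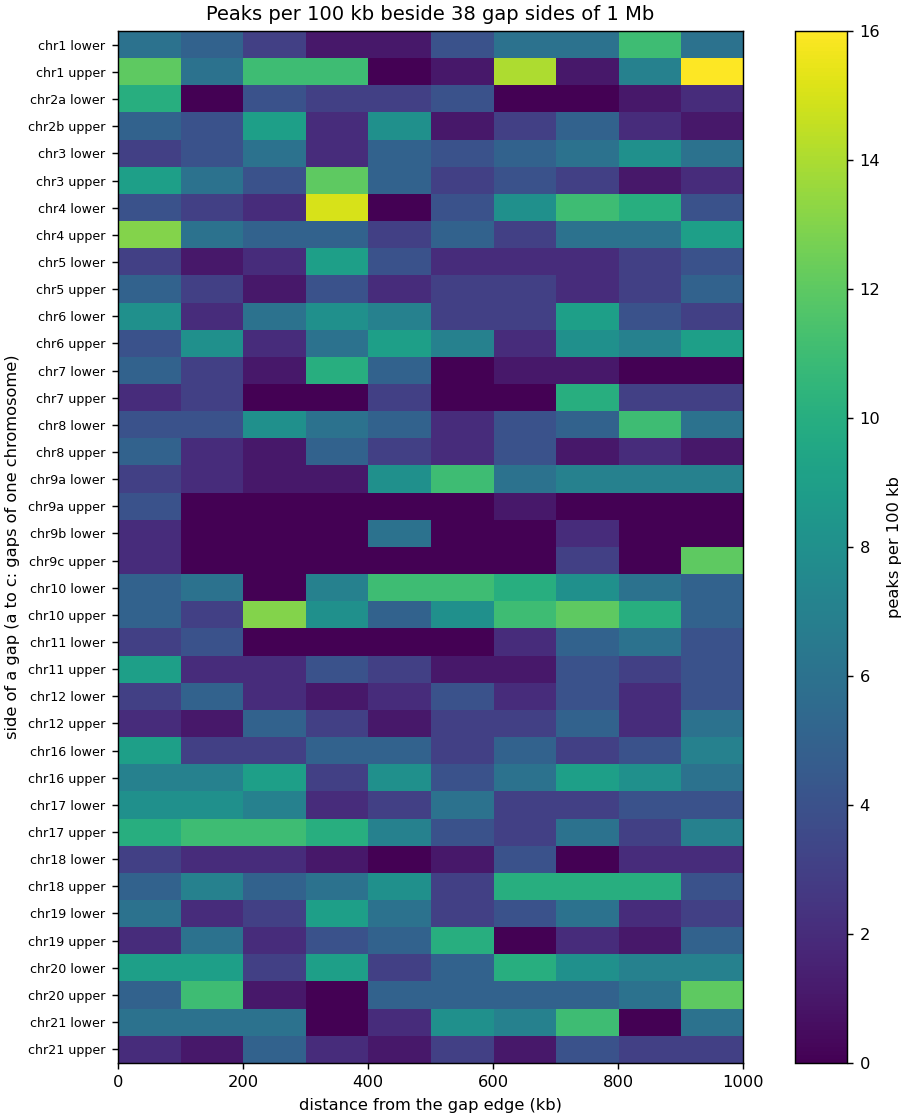
Number of peaks (colour) in each 100 kb bin of the 38 full gap sides (rows), by distance from the gap edge in kb (x axis). Letters after a chromosome number its gaps in order. Dark cells hold no peak: 45 of 380 cells are empty, 22 of them on chromosome 9, and the fullest cell holds 16.

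Beyond the first 100 kb, density was lowest within 1 Mb of the gap and rose past that limit. From 100 to 250 kb from the edge there were 40.0 peaks per Mb (95% Poisson interval 35.1 to 45.4), from 250 to 500 kb 43.3 (39.3 to 47.6) and from 500 kb to 1 Mb 44.3 (41.4 to 47.4). These intervals overlapped one another, so no rise was shown within 1 Mb. Past the limit of 1 Mb, where peaks belong to the rest, the values were 51.1 from 1 to 2 Mb (48.9 to 53.5) and 55.1 from 2 to 3 Mb (52.7 to 57.5). From 3 to 4 Mb the value was 58.8 (56.3 to 61.4), which is near the 58.6 of all other autosomal sequence. From 4 to 5 Mb it was 57.7 (55.2 to 60.2). The values from 1 to 3 Mb were thus also below that of the rest, by intervals that cover counting error only. Windows of 1 Mb elsewhere held 58.7 ± 19.5 peaks (SD over 2610 windows), a spread that these intervals do not include. The first 100 kb held 55.9 peaks per Mb (48.8 to 63.7), but every flank begins with a peak, because a gap is defined by its edges. Without those edge peaks the value was 45.4 (39.1 to 52.5).

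**Figure D4:**
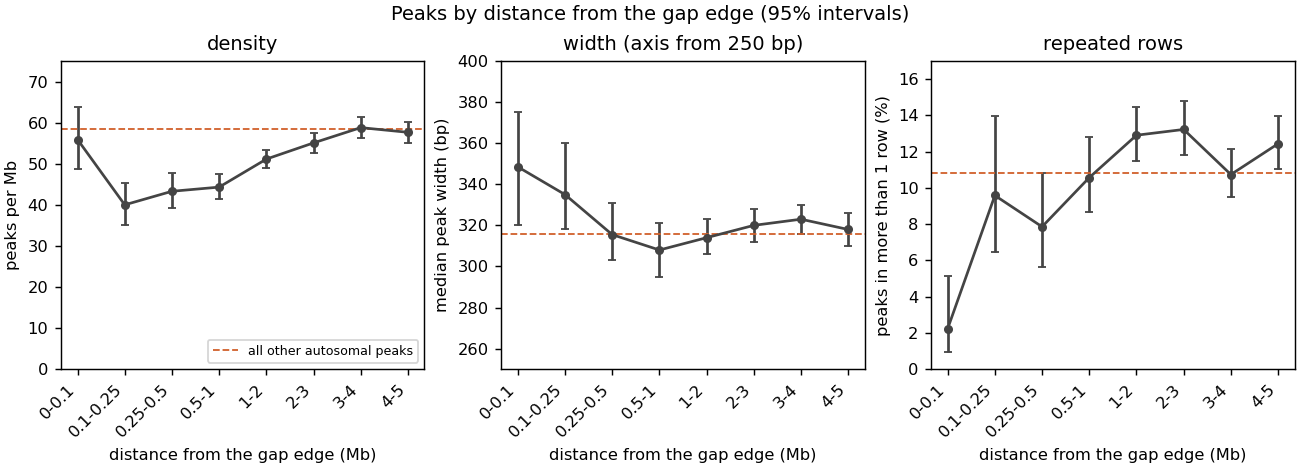
Peaks per Mb (left), median peak width in bp (middle, axis from 250 bp) and percent of peaks deposited in more than 1 row (right) by distance from the gap edge in Mb (x axes), with 95% intervals. Dashed lines are the values of all other autosomal peaks. Density is 55.9 per Mb in the first 100 kb, with the gap-edge peaks included, and 40.0 from 0.1 to 0.25 Mb. It reaches 58.8 from 3 to 4 Mb and is 57.7 from 4 to 5 Mb. Median width falls from 348.5 to 308 bp over the first 1 Mb, and the share in repeated rows starts at 2.23%.

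In the median, the width of peaks beside gaps was within counting error of that of other peaks. The median width was 320 bp (95% order-statistic interval 311 to 328) with quartiles of 235 and 404 bp. Other autosomal peaks had a median of 316 bp (316 to 317) and quartiles of 229 and 396 bp. The share of peaks at 420 bp or wider was 19.6% (95% Wilson interval 17.8 to 21.5%) beside gaps and 18.01% elsewhere (17.8 to 18.2%), and the share narrower than 170 bp was 7.42% (6.27 to 8.75%) beside gaps and 8.12% elsewhere (7.99 to 8.26%). By chromosome, the median beside gaps was wider than that of the rest on 8 chromosomes, narrower on 9 and equal on 1. Single sides ranged in median from 252 bp, on the upper side of chromosome 21, to 401 bp, on the upper side of the 18.4 Mb gap of chromosome 9.

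The widest peaks, by contrast, were more frequent beside gaps. Of the 1726 peaks, 27 were 1 kb or wider, 1.56% (95% Wilson interval 1.08 to 2.27%), against 1414 of the 155424 others, 0.910% (0.864 to 0.958%), a ratio of 1.72. When peaks within 1 kb of each other were merged first, the shares were 7.78% and 7.09%, a ratio of 1.10. At 2 kb or wider there were 4 beside gaps, 0.232% (0.0902 to 0.594%), and 28 elsewhere, 0.0180% (0.0125 to 0.0260%). The 27 lay on 11 chromosomes, with 4 each on chromosomes 8 and 20. Leaving out each chromosome in turn, the share of 1 kb or wider ran from 1.40%, without chromosome 8, to 1.69%, without chromosome 1.

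The widest of all was a peak of 3966 bp on chromosome 7, from 57991963 to 57995928, 57.8 kb below the gap. Next came 2835 bp on chromosome 21 (10733052 to 10735886, 420.3 kb below the gap) and 2833 bp on chromosome 16 (46419332 to 46422164), which was itself the upper edge of the 11.2 Mb gap. A peak of 2515 bp on chromosome 2 (92322864 to 92325378) likewise formed a gap edge, the lower one of the 3.04 Mb gap. The other 6 of the 10 widest measured from 1441 to 1991 bp. They were on chromosome 21 (11075966 to 11077956), chromosome 2 (91786065 to 91787929), chromosome 20 (29645998 to 29647537), chromosome 8 (46844702 to 46846205 and 43793531 to 43794971) and chromosome 10 (42538555 to 42539996). All 10 were deposited in a single row.

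Wide peaks made up a larger share close to the gap edge when all chromosomes were pooled, but a few chromosomes held many of them. Within 100 kb of a gap there were 224 peaks, with a median width of 348.5 bp (95% order-statistic interval 320 to 375), and 27.7% of them (95% Wilson interval 22.2 to 33.9%) were 420 bp or wider. From 500 kb to 1 Mb the median was 308 bp (295 to 321) and this share 18.4% (15.9 to 21.2%). In the first 100 kb 8 peaks were 1 kb or wider, 3.57% (1.82 to 6.89%), against 1.19% from 500 kb to 1 Mb (0.646 to 2.17%). The intervals of the share at 420 bp or wider did not overlap, and those of the share at 1 kb or wider did. The 8 lay on chromosomes 2, 7, 8, 16 and 21. Chromosome 8 alone held 3, and without it the share was 2.33%. Chromosome 21 held another 2 and chromosome 7 held 1. With the edge peaks left out, the first 100 kb had a median of 350.5 bp, 26.4% at 420 bp or wider and 6 of 182 peaks at 1 kb or wider. Leaving out each chromosome in turn kept the median of the first 100 kb between 336 and 354.5 bp. Several chromosomes were not left out together, and no widths after merging are given for this distance.

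**Figure D5:**
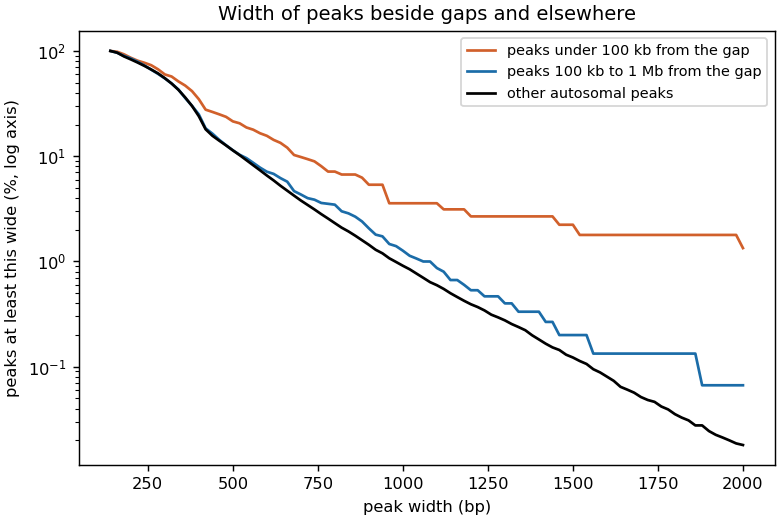
Percent of peaks (y axis, log axis) that are at least a given width (x axis, bp), for peaks under 100 kb from a gap (orange), peaks from 100 kb to 1 Mb from a gap (blue) and all other autosomal peaks (black). At 1000 bp the curves stand at 3.57%, 1.26% and 0.910%, and the orange curve rests on 8 peaks there.

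The width close to a gap differed from chromosome to chromosome. The 9 peaks within 100 kb of the gap of chromosome 8 had a median of 944 bp, and 7 of them were 420 bp or wider. The 8 on chromosome 21 had a median of 724.5 bp, with 6 at 420 bp or wider. The 7 on chromosome 7 had one of 595 bp, with 5 at 420 bp or wider. At the other extreme, none of the 13 such peaks on chromosome 9, the 14 on chromosome 20, the 10 on chromosome 10 or the 5 on chromosome 12 reached 420 bp. Above the gap of chromosome 8, the first 3 peaks, starting at 46843493, 46844702 and 46849004, were 949, 1504 and 1184 bp wide.

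The 42 peaks that form the edges of the 21 gaps had a median width near that of all peaks beside gaps, 311.5 bp (95% order-statistic interval 267 to 418), and a long tail. Their upper quartile was 605.5 bp, and 14 of 42 (33.3%, 95% Wilson interval 21.01 to 48.4%) were 420 bp or wider. Of the 42, 9 had a neighbour within 5 kb (21.4%, 11.7 to 35.9%), against 52.6% of other autosomal peaks. By definition, an edge peak has no near neighbour on the side of its gap. Of single distances from one peak to the next, 31.1% in the flanks and 32.1% elsewhere were 5 kb or less. Whether the missing neighbour accounts for the lower share was not tested. On chromosome 1 the edge peaks were 263 bp (121403799 to 121404061) and 206 bp (142550869 to 142551074) wide. On chromosome 9 those of the longest gap were 369 bp and 371 bp (65549030 to 65549400) wide. On chromosome 16 the lower edge peak was 768 bp wide (35223223 to 35223990), facing the one of 2833 bp.

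The edge peaks of the other named gaps were as follows. Those of chromosome 11 measured 255 and 412 bp, and those of chromosome 10 measured 303 and 190 bp. On chromosome 21 the lower one was 943 bp wide and the upper one 237 bp. Chromosome 6 had 153 and 293 bp, chromosome 18 533 and 212 bp, chromosome 20 199 and 407 bp, and chromosome 19 267 and 609 bp. In none of these 7 pairs did either peak reach 1 kb.

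Some peaks are written in several identical rows of the list, and within 1 Mb of a gap such repeats were scarcer than elsewhere. Of the 1726 peaks, 150 had more than 1 row, 8.69% (95% Wilson interval 7.45 to 10.1%), against 10.8% (10.7 to 11.0%) of the others. The direction depended on the distance chosen: within 2 Mb of a gap the share was 10.9%, against 10.8% for the peaks beyond. Peaks in 3 or more rows made up 1.22% beside gaps and 1.38% elsewhere. The share was lowest at the edge, where 5 of 224 peaks within 100 kb had repeated rows, 2.23% (0.957 to 5.12%). Farther out the share moved up and down. It was 9.58% from 100 to 250 kb (6.47 to 13.97%), 7.86% from 250 to 500 kb (5.65 to 10.8%) and 10.6% from 500 kb to 1 Mb (8.67 to 12.8%). Past 1 Mb it was 12.9% from 1 to 2 Mb (11.5 to 14.5%) and 13.2% from 2 to 3 Mb (11.8 to 14.8%). It was 10.7% from 3 to 4 Mb (9.47 to 12.2%) and 12.4% from 4 to 5 Mb (11.1 to 13.9%). Past 1 Mb, only the interval from 3 to 4 Mb included the 10.8% of the others. Of those 5 peaks, 2 lay on chromosome 4 and 1 each on chromosomes 9, 20 and 21. Without chromosome 4 the share was 1.45%, and without chromosome 2 it was 2.56%, the lowest and highest values when chromosomes were left out in turn. Why a peak was written more than once is not given in the sources used here.

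Repeated rows were unevenly spread, and outside the upper side of chromosome 1 no full side held more than 9 peaks in repeated rows. The upper side of chromosome 1 held 26 such peaks among 79, 32.9%, and 8 of the 21 peaks with 3 rows, where the rest of chromosome 1 stood at 10.9%. That side also had wide peaks, with a median of 394 bp and 35 of 79 (44.3%) at 420 bp or wider, although none reached 1 kb. The upper side of the 18.4 Mb gap of chromosome 9 was alike in part, with 5 of 17 peaks in repeated rows and a median of 401 bp. On 9 of the 38 full sides no peak was repeated. Upper sides had 10.7% of peaks in repeated rows (8.80 to 12.9%) and lower sides 6.59% (5.10 to 8.48%). Without chromosome 1 these shares were 8.498% and 6.87%, so that the difference was smaller.

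Close pairs were more frequent on upper than on lower sides. Another peak lay within 1 kb of 19.98% of the 891 peaks nearest to the upper side of a gap (95% Wilson interval 17.5 to 22.7%) and of 11.98% of the 835 nearest to a lower side (9.95 to 14.4%). Elsewhere the share was 18.4% (18.2 to 18.6%). With each chromosome left out in turn, the share on upper sides ran from 18.7 to 20.7% and that on lower sides from 10.6 to 12.6%. Close pairs come from the peak positions that the rule also used, so these shares are a description.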

How the data were processed

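H3K4me1 ChIP-seq and input libraries of LSD2-knockdown and control HepG2 cells gave 4 samples. Per the labels' protocols, crosslinked chromatin was sonicated and sequenced on semiconductor instruments. The submitters' processing notes name BWA and hg19, without versions. Peaks were called by the authors with MACS, per the file headers, on trimmed reads without duplicates, with the knockdown H3K4me1 library as treatment, the control H3K4me1 library as control, a fragment length of 128 bp and a p-value cutoff of 1e-05. The header names no input library. The 3 deposited columns give chromosome, start and end, so no height or fold is known and all peaks count alike. The fragment length limits how narrow a peak can be, and the call shows only regions higher after knockdown.

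The 180505 rows were reduced to distinct peaks, counted from 1 on hg19. Flanks were the parts within 1 Mb of a gap, ended at the next gap. Gaps were left out of all lengths. Where a flank lay between 2 gaps, its peaks went to the nearer one, and 49 peaks lay within 1 Mb of 2 gaps. Poisson, Wilson and binomial order-statistic intervals (95%) and exact intervals of ratios were computed with scipy 1.17.1, with pandas 2.3.3 and numpy 2.4.6. On simulated peaks placed at random, only the number of gaps, the density ratio and the difference in median width were checked. With 1 library per group no test between conditions was made. The regions named were the 10 longest gaps with their edge peaks, the 5 fullest and 5 emptiest sides, the 10 widest peaks and those at the limits. The other regions were chosen after their values were seen. The set of peaks and all lists were chosen with earlier results of these data known. Genes were not assigned, because no hg19 annotation was used here.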

Additional observations from a re-analysis of the deposited data

How the results depend on the processing

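The results were recomputed with other limits for the gap and the distance, with stretches before a chromosome's first peak counted as gaps, with every row counted, with peaks within 1 kb merged, with the longest gap of each autosome, with other peaks from the chromosomes that have a gap, and without chromosome 10. Leaving out chromosome 9, leaving out stretches over 100 kb and leaving out each chromosome in turn were added after the data were seen, as was the interval for windows elsewhere. Of 109 recomputed values, 96 stayed within the interval of the value given above, or within 1.5-fold for counts.

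With gaps over 0.5 Mb there were 34 gaps, and the ratio of upper to lower density was 0.931, on the other side of equality from 1.05. With a distance of 0.5 Mb there were 884 peaks, a median width 13 bp above that of the others instead of 4 bp, and 6.90% in repeated rows. With 2 Mb there were 3655 peaks, a density ratio of 0.815, and 10.9% in repeated rows against 10.8% elsewhere, which turned that difference around. After merging, 7.78% were 1 kb or wider (7.09% elsewhere), 24.5% were 420 bp or wider (24.8% elsewhere) and 42.0% had a neighbour within 5 kb. Merging thus left little of the difference at 1 kb and turned it around at 420 bp, and the median width minus that of the others was -1 bp. No interval is given for these merged values. The density ratio was 0.801 without chromosome 9 and 0.914 without stretches over 100 kb. No density ratio of flanks to rest reached 1 under any of these settings. The settings largely share their gaps and use the peak positions of the rule, so this is a description and supports no test.

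The depth is unknown, so a stretch without a peak cannot be told apart from one with too few reads to call a peak. Single libraries could not be left out, since that would empty a group. No paired analysis was possible because there is a single library per condition and antibody.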
